A study of Homo sapiens with 12 samples.

Results

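CNR1 and CNR2 encode the cannabinoid receptors CB1 and CB2. Their rows were selected by gene symbol from a table of 13820 genes, and the pair was chosen on the response of CNR1 to knockdown of SMARCA4 in these same libraries. Of the 2 receptors, 1 had a row, CNR1 (ENSG00000118432). CNR2 (ENSG00000188822) had no row by symbol or by identifier in the table used here, so no level, fold change or share of the pair can be given for it. The lowest total of any row over the 12 libraries was 13 counts. A missing row, here and below, does not tell whether a gene had few counts, none, or was not counted. Because the pair was chosen on it, the knockdown response of CNR1 is described without a test, and the tests on CNR1 are of the drug, which the choice did not use.

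The study measured RNA in Z-138 cells, a long-established line of mantle cell lymphoma, that carried an shRNA against SMARCA4 or a control shRNA. SMARCA4 is the ATP-driven motor of SWI/SNF complexes, which move nucleosomes. Ibrutinib inhibits BTK, a kinase downstream of the B cell receptor, and venetoclax inhibits the survival protein BCL2. The 12 libraries formed 4 groups of 3: SMARCA4 shRNA with 3 µM ibrutinib plus 3 µM venetoclax (knockdown under drug), SMARCA4 shRNA with DMSO, control shRNA with 3 µM ibrutinib plus 3 µM venetoclax (control under drug), and control shRNA with DMSO. All 4 groups were cultured with doxycycline, so none shows the line without it. Only 1 line was used, and the knockdown cannot be told apart from the shRNA construct that carried it. Nothing in the labels tells whether replicates came from different cultures, and a p-value here therefore covers only the scatter of these libraries.

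CB1 and CB2 are receptors with 7 membrane spans that couple to Gi/o proteins, which lower cAMP through adenylyl cyclase, while the released G beta gamma pair acts on channels and kinases. Their natural ligands, anandamide and 2-arachidonoylglycerol, are lipids made on demand from membrane phospholipids and cleared by hydrolysis inside cells. CB1 is known as an abundant receptor of neurons, and CB2 as the receptor of B cells and other immune cells. Expression of both receptors in mantle cell lymphoma has been described in earlier work on this disease.

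The 250 bases before the RefSeq start of each gene are shown because they are the stretch at which the 2 genes can be set side by side, whereas only one of them was counted. Both are read from GRCh38.p14 on the minus strand, CNR1 at chr6:88167350-88167599, before the most upstream of its 6 RefSeq starts, and CNR2 at chr1:23913363-23913612. Capitals mark CG dinucleotides.
CNR1: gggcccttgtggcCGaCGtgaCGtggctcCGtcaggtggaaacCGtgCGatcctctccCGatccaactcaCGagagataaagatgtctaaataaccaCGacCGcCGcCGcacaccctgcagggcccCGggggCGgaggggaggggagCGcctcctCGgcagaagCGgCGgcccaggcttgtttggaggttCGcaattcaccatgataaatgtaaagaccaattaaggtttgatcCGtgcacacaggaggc
CNR2: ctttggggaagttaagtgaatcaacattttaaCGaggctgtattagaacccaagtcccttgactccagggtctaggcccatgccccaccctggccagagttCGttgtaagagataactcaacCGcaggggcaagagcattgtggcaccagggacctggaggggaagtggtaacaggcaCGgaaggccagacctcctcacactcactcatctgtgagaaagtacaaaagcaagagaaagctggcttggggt
The CNR1 window held 20 CG dinucleotides and a GC content of 60.4%, and 67.6% of the 35116 RefSeq windows of this length held fewer. The CNR2 window held 4 CG dinucleotides and a GC content of 52.4%, and 29.3% of windows held fewer. The median over all windows was 11. Across its 6 starts the CNR1 windows held 0 to 29 CG dinucleotides, and TATAAA, searched on both strands, was in 1 of the 6 and in 10.7% of all windows. No measurement in these data was made on these windows, and 3' counts do not say which start was used.

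CNR1 was a moderately abundant transcript in SMARCA4 knockdown cells and a scarce one in control cells. Levels are counts per 1000000 (CPM) of 3' tags after TMM scaling. The kit is designed to read each transcript once at its 3' end, so levels are not divided by transcript length. Knockdown libraries under drug had 349, 412 and 450 CNR1 counts, equal to 45.8, 49.2 and 49.4 CPM. Knockdown libraries in DMSO had 344, 408 and 967 counts, the last from the deepest library, equal to 37.6, 44.3 and 42.9 CPM. Control libraries under drug had 48, 35 and 47 counts, equal to 5.60, 4.52 and 5.68 CPM. Control libraries in DMSO had 48, 42 and 31 counts, equal to 4.80, 5.07 and 3.70 CPM. All 6 knockdown libraries were above all 6 control libraries, with a gap between 37.6 CPM in the lowest knockdown library and 5.68 CPM in the highest control library.

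The mean CNR1 level was 48.1 ± 2.01 CPM in knockdown cells under drug, 41.6 ± 3.51 CPM in knockdown cells in DMSO, 5.27 ± 0.647 CPM in control cells under drug and 4.52 ± 0.726 CPM in control cells in DMSO (SD, n = 3 each). Ranked by mean level among the 13820 genes, CNR1 was above 76.7% of rows in knockdown cells under drug and above 73.4% in knockdown cells in DMSO. It was above 34.5% of rows in control cells under drug and above 32.6% in control cells in DMSO. The coefficient of variation between replicates was 4.18% in knockdown cells under drug and 8.44% in knockdown cells in DMSO, where counting error alone gives 4.98% and 4.18%. In control cells it was 12.3% under drug and 16.1% in DMSO, where counting error gives 15.2% and 15.7%. Scatter in control cells was thus about that of counting 31 to 48 tags.

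**Figure D1:**
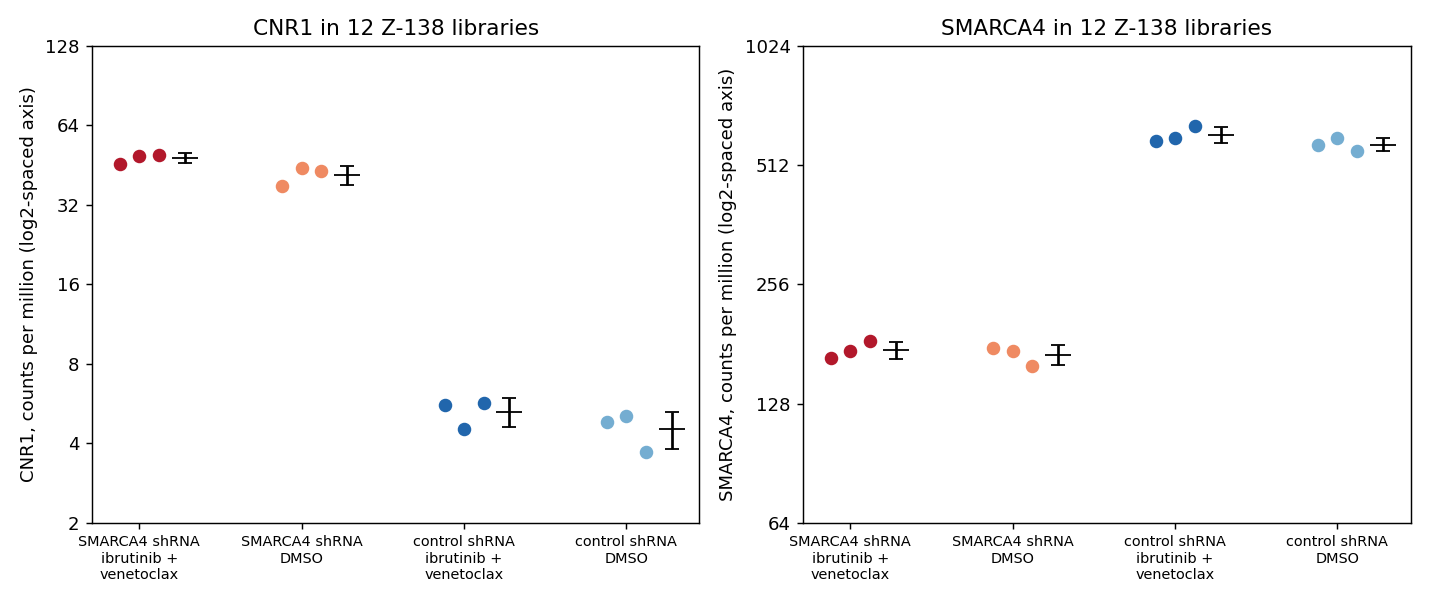
Levels of CNR1 (left) and SMARCA4 (right) in 12 Z-138 libraries, in CPM on log axes. Points are libraries and the bar beside them is the mean ± SD of 3; the knockdown libraries lie between 37.6 and 49.4 CPM for CNR1 and the control libraries between 3.70 and 5.68 CPM, while SMARCA4 runs the other way.

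The targeted gene itself followed the labels. SMARCA4 averaged 175 ± 8.66 CPM in knockdown cells under drug, 170 ± 9.67 CPM in knockdown cells in DMSO, 610 ± 28.2 CPM in control cells under drug and 577 ± 21.6 CPM in control cells in DMSO (SD, n = 3 each). Total counts were 7279503 to 10151679 in 11 libraries and 22528537 in replicate 3 of knockdown cells in DMSO. The column taken as replicate 1 of control cells under drug named no treatment and was placed by elimination of names. Values without it are given for the CNR1 knockdown effect under drug and drug effect in control cells. The list calls that were lost without it are named in the last section. Of the B cell and mantle cell lymphoma markers looked for, 7 of 9 had a row, with CCND1, the cyclin of the disease's hallmark translocation, at 3290 to 4889 CPM. CD22 and CD5 had no row. The 5 B cell markers with a row summed to 263 to 278 CPM in knockdown cells under drug, 243 to 250 CPM in knockdown cells in DMSO, 542 to 604 CPM in control cells under drug and 495 to 526 CPM in control cells in DMSO. Whether that lower sum has a part in any result here was not tested, and in bulk RNA fewer cells of a kind cannot be told apart from less RNA per cell. None of 4 NK cell markers or 4 monocyte and macrophage markers had a row, and of 4 T cell markers only CD3G did. CD3G was at 1.43 to 2.30 CPM in knockdown cells under drug, 1.31 to 2.06 CPM in knockdown cells in DMSO, 14.1 to 18.2 CPM in control cells under drug and 15.4 to 16.2 CPM in control cells in DMSO. Of 4 fibroblast and epithelial markers only COL1A1 had a row, at 14.2 to 15.1 CPM in knockdown cells under drug, 14.8 to 15.1 CPM in knockdown cells in DMSO, 25.2 to 26.0 CPM in control cells under drug and 19.6 to 23.7 CPM in control cells in DMSO. CD3G and COL1A1 were thus lower in every knockdown library, and their part in the results was not tested.

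In DMSO, CNR1 was 9.17-fold higher in knockdown than in control cells (95% interval 7.72 to 10.9), a log2 fold change of 3.20 with a standard error (SE) of 0.12. Under drug it was 9.10-fold higher in knockdown than in control cells (7.66 to 10.8), a log2 fold change of 3.19 (SE 0.12). In DMSO, 15.1% of the 12602 genes tested rose and 16.2% fell past the threshold, an adjusted p of 0.05 in edgeR's quasi-likelihood test with Benjamini-Hochberg adjustment. Under drug, 14.8% rose and 16.3% fell. Nothing about CNR1 is read from those shares, since the choice of the gene used these contrasts. For the same reason its knockdown intervals and ranks are a description, and the intervals do not cover that choice. The split between the directions depends on the scaling: under drug, genes that rose were 47.5% of those past the threshold with TMM and 65.0% with library totals, where CNR1 had a log2 fold change of 3.27. The fold change of CNR1 ranked 20th from the top of all genes tested in DMSO, next to TMEM35 (3.31) above and TLE2 (3.16) below. Under drug it ranked 22nd, between MYO3A (3.25) and HDAC11 (3.12). Only 1 gene whose log2 CPM averaged 3 or more had a larger rise in either condition. As a difference of levels, knockdown cells had 42.9 CPM more CNR1 under drug and 37.1 CPM more in DMSO. Without the library whose treatment was placed by elimination, the log2 fold change under drug was 3.23.

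Ibrutinib plus venetoclax gave small differences in CNR1 that did not pass the test in either background. In knockdown cells the 3 libraries under drug (45.8 to 49.4 CPM) lay above the 3 in DMSO (37.6 to 44.3 CPM), by 6.53 CPM on the means. The log2 fold change was 0.21 (SE 0.08, 95% interval 0.035 to 0.38), with an adjusted p of 0.338 in edgeR's quasi-likelihood test (0.0198 before Benjamini-Hochberg adjustment), so it did not pass the threshold. It was 0.15 without replicate 1 of knockdown cells in DMSO, the lowest of that group. In control cells, the libraries under drug (4.52 to 5.68 CPM) overlapped those in DMSO (3.70 to 5.07 CPM). The log2 fold change there was 0.22 (SE 0.18, -0.15 to 0.58), with an edgeR adjusted p of 0.773. Without the library placed by elimination it was 0.17, and without replicate 3 of control cells in DMSO, at 3.70 CPM, it was 0.098, with edgeR adjusted p-values of 0.909 and 0.916. Subtracting the drug effect of control cells from that of knockdown cells left -0.012 (SE 0.19, -0.40 to 0.38; edgeR adjusted p = 0.995). That interval still allows a difference of about 1.3-fold either way. The drug changed 1.29% of all genes tested in knockdown cells and 1.29% in control cells past the threshold, and the difference between these effects passed it in 0.0238%, or 3 genes.

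**Figure D2:**
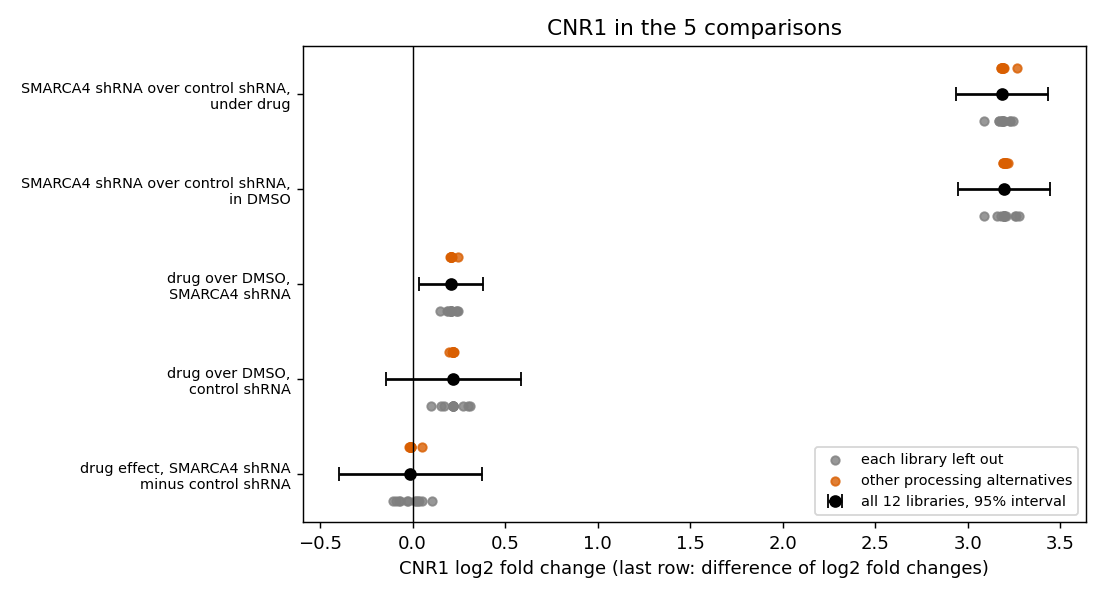
CNR1 log2 fold change in 5 comparisons, with the estimate from all 12 libraries and its 95% interval in black, estimates with each library left out in grey, and estimates under other processing in orange. The knockdown estimates stay between 3.09 and 3.28 and the drug estimates between 0.098 and 0.31, while the difference between the drug effects lies on both sides of 0.

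CNR1 was set among 130 genes in 10 lists that cover its ligands' enzymes, related receptors, signalling partners and 2 comparison groups. Of these, 67 had a row and 64 passed the low-count filter (ABHD4, ADCY4 and CCR6 did not). With knockdown in DMSO, 10 rose and 19 fell past the threshold, 45.3% of the 64, with a median log2 fold change of -0.086. Of all genes tested in DMSO, 15.1% rose and 16.2% fell. With knockdown under drug, 11 rose and 13 fell, 37.5% of the 64, with a median of -0.11, beside 14.8% of all genes that rose and 16.3% that fell. The medians of all genes tested were 0.0038 in DMSO and 0.0018 under drug. Of the knockdown calls, 18 of 29 in DMSO and 18 of 24 under drug held without each of the 12 libraries in turn. The lists were chosen with earlier results of these data known. The shares past the threshold and the knockdown p-values of list genes are therefore a description. The drug lowered 1 list gene in knockdown cells, 1.56% of the 64, and 4 in control cells, 6.25%, beside the 1.29% of all genes that it changed in each. None rose under drug by edgeR, DESeq2 or limma-voom after adjustment. At an unadjusted p under 0.05 in edgeR, 0 rose and 8 fell in knockdown cells, and 2 rose and 13 fell in control cells. Of all 12602 genes tested, 1316 in knockdown cells and 1266 in control cells were under that cut, in either direction. None of the 64 passed for the difference between the drug effects by any of the 3 tools. At an unadjusted p under 0.05 in edgeR, 4 of the 64 did for that difference, beside 674 of all 12602 genes tested. The difference between the knockdown effects in the 2 conditions is the same quantity. A list gene that passed in 1 condition only was therefore not shown to differ between conditions.

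Among the enzymes that make endocannabinoids, 4 of 7 were tested, and changes were small. GDE1, a glycerophosphodiesterase of the anandamide route, averaged 46.1 ± 1.16 CPM in knockdown cells under drug and 37.8 ± 1.47 CPM in control cells under drug (SD, n = 3 each). The groups did not overlap, and the log2 fold change was 0.29 (SE 0.08; edgeR adjusted p = 0.0054). In DMSO it was 0.19 (adjusted p = 0.048), a call lost when any 1 of 7 libraries was left out, with 0.15 the smallest value, without replicate 2 of knockdown cells in DMSO. GDPD1, a related phosphodiesterase, rose under drug by 0.75 (edgeR adjusted p = 0.00772), and by 0.63 without replicate 2 of knockdown cells under drug (adjusted p = 0.0524). In DMSO GDPD1 averaged 6.68 CPM in knockdown and 4.58 CPM in control cells and did not pass. NAPEPLD, the phospholipase that releases anandamide from its precursor, had a log2 fold change of 0.30 in DMSO (edgeR adjusted p = 0.0491), and the call was lost when any 1 of 6 libraries was left out. DAGLB, which makes 2-arachidonoylglycerol, did not pass in either condition, at -0.12 in DMSO and -0.31 under drug. DAGLA and PLA2G4E had no row.

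The breakdown enzymes moved in opposite directions. MGLL, the main lipase of 2-arachidonoylglycerol, fell with knockdown. It was at 25.6, 25.9 and 24.5 CPM in knockdown cells under drug and 41.6, 46.5 and 50.2 CPM in control cells under drug. In DMSO it was at 24.5, 24.6 and 27.3 CPM in knockdown cells and 44.0, 35.6 and 42.6 CPM in control cells. All 6 knockdown libraries were below all 6 control libraries, with log2 fold changes of -0.86 under drug and -0.67 in DMSO (SE 0.09 each; edgeR adjusted p = 1.11e-08 and 5.7e-07). ABHD6, a membrane lipase that takes a smaller share of the same lipid, rose. It averaged 5.08 ± 1.80 CPM in knockdown cells under drug, 5.98 ± 0.589 CPM in knockdown cells in DMSO, 1.99 ± 0.267 CPM in control cells under drug and 3.06 ± 0.297 CPM in control cells in DMSO (SD, n = 3 each). Its log2 fold changes were 1.33 under drug and 0.98 in DMSO (edgeR adjusted p = 0.000298 and 0.00111). ABHD12, another hydrolase of 2-arachidonoylglycerol, had log2 fold changes of -0.34 under drug and -0.37 in DMSO that passed with all 12 libraries. The first call was lost when any 1 of 10 libraries was left out, and the second without replicate 2 of knockdown cells in DMSO or replicate 1 of control cells in DMSO (-0.28 without the last). FAAH, the main anandamide hydrolase, was near 1 CPM in all 4 groups and did not pass in either condition. FAAH2 and NAAA did not pass either, and PTGS2 had no row. FAAH had 4 to 18 counts per library and FAAH2 had 12 to 45. At such low counts this does not show that FAAH and FAAH2 were unchanged.

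Of the carriers, FABP5, a fatty acid binding protein that moves anandamide through the cytosol, averaged 103 ± 7.03 CPM in knockdown cells under drug, 110 ± 3.90 CPM in knockdown cells in DMSO, 134 ± 8.27 CPM in control cells under drug and 139 ± 6.84 CPM in control cells in DMSO (SD, n = 3 each). It fell by 0.39 under drug and by 0.33 in DMSO on the log2 scale (edgeR adjusted p = 1.72e-05 and 9.27e-05). FABP3 fell in DMSO by 1.02, or by 0.80 without replicate 3 of knockdown cells in DMSO, where the edgeR adjusted p was 0.0878. Under drug FABP3 averaged 2.07 CPM in knockdown and 3.55 CPM in control cells and did not pass. SCP2 did not pass, and FABP7 had no row.

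**Figure D3:**
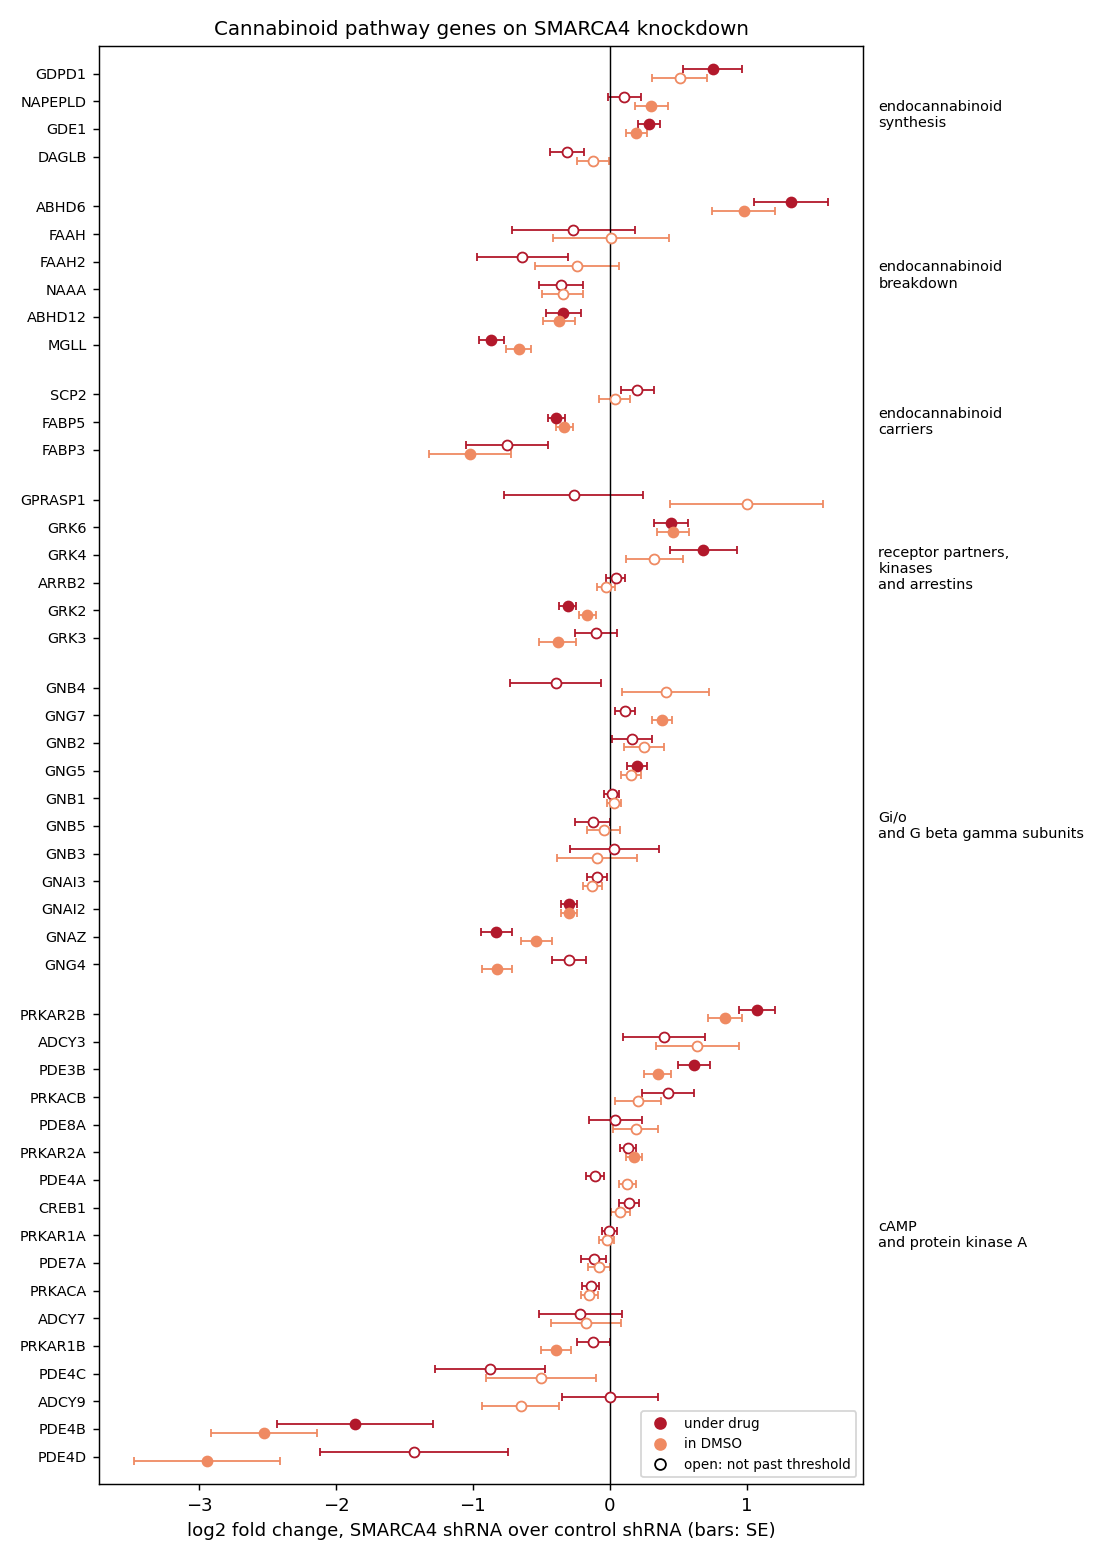
Log2 fold change of SMARCA4 shRNA over control shRNA for the tested genes of 6 cannabinoid pathway lists, under drug (dark red) and in DMSO (orange), with SE bars; filled points passed the threshold. ABHD6 and PRKAR2B stand on the right and MGLL, GNAZ, PDE4B and PDE4D on the left in both conditions, with PDE4D past the threshold in DMSO.

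Of 10 other receptors that respond to cannabinoids, 4 were tested, and GPR18, a receptor of N-arachidonoyl glycine, was the one that passed the threshold. It was at 7.22, 5.13 and 9.00 CPM in knockdown cells under drug and 29.8, 28.2 and 29.4 CPM in control cells under drug. The DMSO libraries were at 8.53, 7.82 and 7.23 CPM in knockdown cells and 23.7, 25.8 and 26.5 CPM in control cells. The log2 fold changes were -2.02 (SE 0.14) under drug and -1.71 (SE 0.13) in DMSO, with edgeR adjusted p-values of 1.96e-13 and 1.64e-12. All 6 knockdown libraries were below all 6 control libraries, the reverse of CNR1. TRPV2, TRPM8 and PPARA were at 0.845 to 3.75 CPM in all libraries and did not pass. At such low levels this does not show that they were unchanged. GPR55, GPR119, TRPV1, TRPV4, TRPA1 and PPARG had no row.

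CB1 belongs to a branch of receptors with those for sphingosine 1-phosphate, lysophosphatidic acid, melanocortins and adenosine, and 5 of its 20 listed relatives were tested. S1PR1, the sphingosine 1-phosphate receptor that guides lymphocytes out of lymphoid tissue, was at 14.2, 10.7 and 9.11 CPM in knockdown cells under drug and 5.36, 6.59 and 3.99 CPM in control cells under drug. DMSO values were 11.6, 11.7 and 13.1 CPM in knockdown cells and 5.30, 3.14 and 3.58 CPM in control cells. It rose by 1.09 (SE 0.20) under drug and 1.59 (SE 0.19) in DMSO on the log2 scale, with edgeR adjusted p-values of 5.99e-05 and 7.78e-08. S1PR4, a blood cell receptor for the same lipid, was scarce, at 0.716 to 3.73 CPM over all libraries, and fell by 1.62 (SE 0.34) under drug and by 1.33 (SE 0.30) in DMSO (edgeR adjusted p = 0.000359 and 0.000837). ADORA1, a Gi-coupled adenosine receptor, fell under drug by 0.73 (edgeR adjusted p = 4.92e-05). Its value in DMSO, -0.31 (adjusted p = 0.0426), lost the call when any 1 of 6 libraries was left out and was -0.15 without replicate 3 of knockdown cells in DMSO. LPAR2, a lysophosphatidic acid receptor, rose under drug by 0.74 (edgeR adjusted p = 0.00485). In DMSO it was at 0.52 (adjusted p = 0.0262), a call lost when any 1 of 4 libraries was left out, with 0.36 the smallest value, without replicate 2 of knockdown cells in DMSO. MC1R, at 6 to 24 counts per library, did not pass, which at such low counts does not show that it was unchanged.

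**Figure D4:**
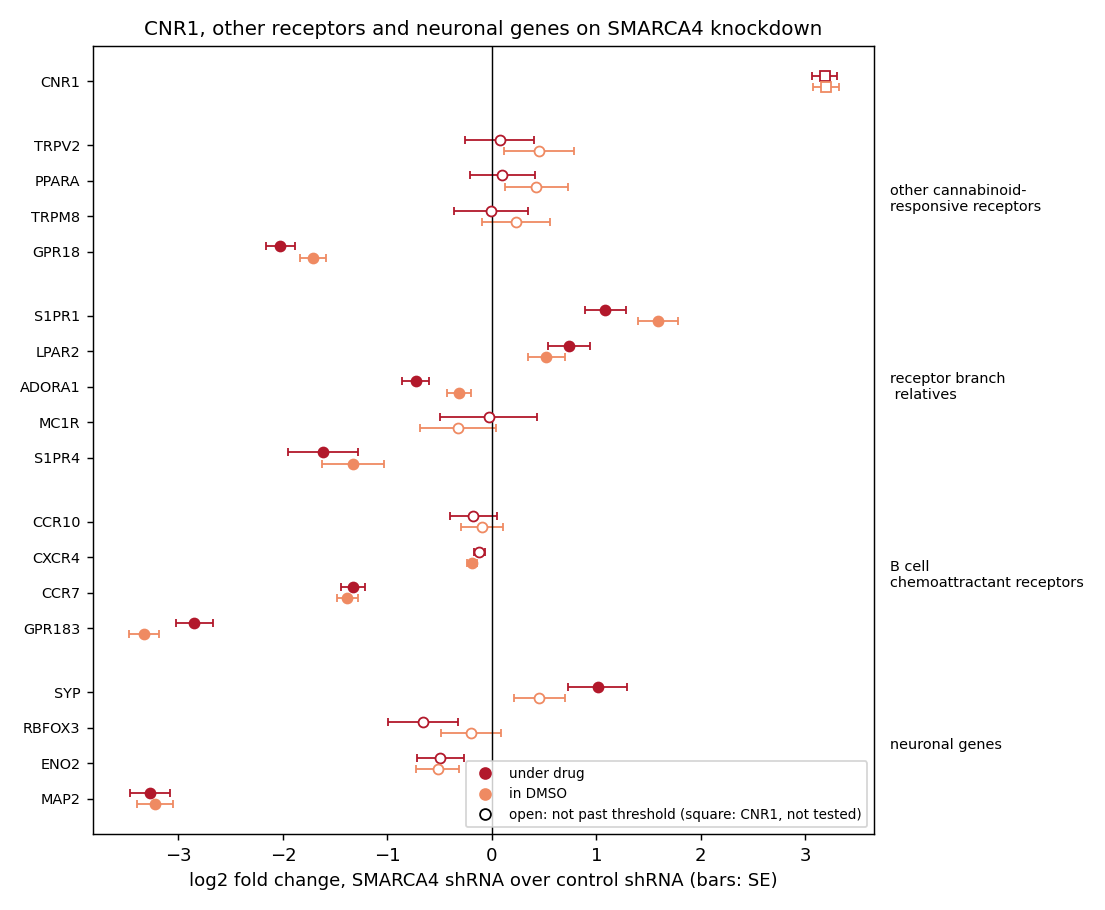
Log2 fold change of SMARCA4 shRNA over control shRNA for CNR1 (squares, not tested), other receptors and neuronal genes, under drug (dark red) and in DMSO (orange), with SE bars; filled points passed the threshold. CNR1 lies at 3.19 and 3.20, S1PR1 at 1.09 and 1.59, and GPR18, S1PR4, CCR7, GPR183 and MAP2 lie left of 0.

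Chemoattractant receptors of B cells (4 tested of 8 listed) are given as neighbours in function, since CB2 and receptors for sphingosine 1-phosphate also steer B cell position. GPR183, the oxysterol receptor EBI2, was at 1.57, 2.15 and 2.41 CPM in knockdown cells under drug and 16.1, 15.1 and 13.7 CPM in control cells under drug. With DMSO it was at 2.30, 2.39 and 2.53 CPM in knockdown cells and 24.8, 24.3 and 24.9 CPM in control cells. Its log2 fold changes were -2.85 (SE 0.18) under drug and -3.33 (SE 0.14) in DMSO (edgeR adjusted p = 3.38e-14 and 3.9e-18), about the size of the CNR1 difference with the opposite sign. CCR7, which guides cells to lymph nodes, fell by 1.33 under drug and by 1.38 in DMSO (edgeR adjusted p = 4.92e-11 and 1.22e-12). CXCR4, the most abundant of the list at 402 to 523 CPM, fell by 0.19 in DMSO (edgeR adjusted p = 0.00362) and was at -0.12 under drug, short of the threshold. The drug lowered GPR183 in control cells by 0.72 (edgeR adjusted p = 0.000189). CXCR3, CXCR5 and CCR9 had no row.

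Of 21 neuronal genes listed, 4 had a row, and their lower sum in knockdown cells came from MAP2. RBFOX3, SYP, MAP2 and ENO2 summed to 10.5 to 10.8 CPM in knockdown cells under drug, 10.8 to 12.6 CPM in knockdown cells in DMSO, 25.1 to 27.2 CPM in control cells under drug and 25.5 to 30.7 CPM in control cells in DMSO. Without MAP2, the other 3 summed to 8.45 to 9.31 CPM in knockdown cells under drug, 9.19 to 10.1 CPM in knockdown cells in DMSO, 8.34 to 10.1 CPM in control cells under drug and 8.47 to 11.6 CPM in control cells in DMSO, so that the groups overlapped. MAP2, a microtubule protein of dendrites, fell by 3.27 under drug and by 3.23 in DMSO (edgeR adjusted p = 1.14e-14 and 9.21e-16). SYP, a synaptic vesicle protein, rose under drug by 1.01 (edgeR adjusted p = 0.00593) at levels under 5 CPM. In DMSO SYP averaged 3.59 CPM in knockdown and 2.64 CPM in control cells and did not pass.

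Of the partners of CB1 itself, CNRIP1 and SGIP1, which bind its tail, and the arrestin ARRB1 had no row. Of 6 tested, GRK6, a kinase that phosphorylates activated receptors, averaged 18.5 ± 1.74 CPM in knockdown cells under drug, 19.3 ± 1.20 CPM in knockdown cells in DMSO, 13.7 ± 1.64 CPM in control cells under drug and 14.0 ± 1.71 CPM in control cells in DMSO (SD, n = 3 each). It rose by 0.46 in DMSO (edgeR adjusted p = 0.00247) and by 0.45 under drug (adjusted p = 0.00584), or by 0.35 under drug without replicate 1 of control cells under drug, where the adjusted p was 0.054. GRK2, listed in the table as ADRBK1, fell by 0.31 under drug (edgeR adjusted p = 0.000327). In DMSO it was at -0.16 (adjusted p = 0.0434), a call lost when any 1 of 6 libraries was left out. The arrestin ARRB2 was at 67.6 to 82.4 CPM in all 12 libraries and did not pass in either condition, at 0.04 under drug and -0.03 in DMSO. GRK3, listed as ADRBK2, was at -0.38 in DMSO (adjusted p = 0.0271), a call lost when any 1 of 4 libraries was left out. GRK4 was at 0.68 under drug (adjusted p = 0.0333), a call lost when any 1 of 5 libraries was left out.

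Of 20 listed Gi/o and G beta gamma subunit genes, 11 had a row and were tested. GNAI2, the most abundant Gi alpha subunit here, was at 151 to 168 CPM in the 6 knockdown libraries and 190 to 218 CPM in the 6 control libraries, without overlap. It fell by 0.30 under drug and by 0.30 in DMSO (SE 0.06 each; edgeR adjusted p = 0.000247 and 0.000163). GNAZ, the Gz alpha subunit, fell by 0.83 under drug and by 0.54 in DMSO (edgeR adjusted p = 1.22e-06 and 0.000317), while GNAI3 did not pass and GNAI1 and GNAO1 had no row. GNG4, a gamma subunit, was at 22.6, 17.7 and 18.1 CPM in knockdown cells in DMSO and 35.0, 36.4 and 30.9 CPM in control cells in DMSO. It fell by 0.82 in DMSO (edgeR adjusted p = 5.37e-07). Under drug its knockdown libraries overlapped the controls, at -0.30 (adjusted p = 0.0758), and the difference between the 2 knockdown effects did not pass (0.53, adjusted p = 0.653). The drug lowered it in control cells by 0.71 (edgeR adjusted p = 0.000213). GNG7 rose in DMSO by 0.38 (edgeR adjusted p = 6.95e-05). Under drug GNG7 averaged 84.9 CPM in knockdown and 78.6 CPM in control cells and did not pass. GNG5 was at 0.20 under drug (edgeR adjusted p = 0.0412), a call lost when any 1 of 4 libraries was left out. GNB1, the most abundant beta subunit of the list at 334 to 393 CPM, did not pass.

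Downstream, 17 of 23 genes of cAMP and protein kinase A were tested. PRKAR2B, a regulatory subunit of protein kinase A, was at 24.7, 19.2 and 21.5 CPM in knockdown cells under drug and 10.8, 9.30 and 10.8 CPM in control cells under drug. It rose by 1.07 (SE 0.13) under drug and 0.84 (SE 0.13) in DMSO (edgeR adjusted p = 1.33e-07 and 3.46e-06). PDE4B and PDE4D, phosphodiesterases that degrade cAMP, were scarce, at 0 to 1.64 CPM in knockdown libraries and 0.363 to 7.64 CPM in control libraries. In DMSO PDE4B fell by 2.53 (SE 0.39) and PDE4D by 2.94 (SE 0.53), with edgeR adjusted p-values of 5.34e-06 and 6.03e-05. PDE4D was at -3.72 without replicate 1 of knockdown cells in DMSO and at -2.56 without replicate 2 of that group. It stayed past the threshold without any 1 library. Under drug PDE4B was at -1.86 (adjusted p = 0.012), a call lost without replicate 2 of knockdown cells or replicate 2 of control cells (-1.44 without the last), and PDE4D at -1.43 (adjusted p = 0.116). PDE3B, another phosphodiesterase, was at 18.5, 18.4 and 18.1 CPM in knockdown cells under drug, 25.3, 30.1 and 24.4 CPM in knockdown cells in DMSO, 11.5, 11.5 and 12.8 CPM in control cells under drug and 20.1, 20.0 and 21.8 CPM in control cells in DMSO. It was the one list gene that the drug changed past the threshold in both backgrounds, by -0.52 in knockdown cells and -0.79 in control cells (edgeR adjusted p = 0.00253 and 5.32e-05). With knockdown PDE3B rose by 0.62 under drug (edgeR adjusted p = 0.000135) and by 0.35 in DMSO (adjusted p = 0.00622), or by 0.26 in DMSO without replicate 2 of knockdown cells in DMSO, where the adjusted p was 0.0569. The drug value of PDE4B in control cells, -1.44 (adjusted p = 0.0417), was lost when any 1 of 4 libraries was left out. PRKAR1B fell in DMSO by 0.39 (edgeR adjusted p = 0.00617), or by 0.27 without replicate 3 of knockdown cells in DMSO (adjusted p = 0.108). PRKAR2A, the most abundant of the list, was at 0.18 in DMSO (adjusted p = 0.0177), a call lost without replicate 1 of knockdown cells in DMSO or replicate 2 of control cells in DMSO (0.14 without the first). The cyclases ADCY3, ADCY7 and ADCY9, the catalytic subunits PRKACA and PRKACB and the factor CREB1 did not pass with knockdown in either condition.

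The genes whose profile over the 12 libraries lay closest to that of CNR1 were MIR30A, CTTN, OSR2, ARPP21, PFN2 and KCNK12. Likeness was the root mean square difference of log2 CPM, each gene centred on its own mean, among the 8179 genes whose log2 CPM averaged 3 or more. It was 0.269 for MIR30A, 0.450 for CTTN, 0.464 for OSR2, 0.488 for ARPP21, 0.546 for PFN2 and 0.581 for KCNK12, and the Pearson correlation with CNR1 ran from 0.970 to 0.995. The correlation follows the contrast between 6 knockdown and 6 control libraries that all genes share: 222 of the 8179 genes had one of at least 0.95. MIR30A, a microRNA gene whose row counts 3' tags assigned there and not mature microRNA, averaged 226 ± 20.0 CPM in knockdown cells under drug, 198 ± 13.4 CPM in knockdown cells in DMSO, 28.8 ± 6.71 CPM in control cells under drug and 22.7 ± 4.84 CPM in control cells in DMSO (SD, n = 3 each). CTTN, an actin-binding protein, averaged 132 ± 4.78 CPM in knockdown cells under drug, 116 ± 3.19 CPM in knockdown cells in DMSO, 24.4 ± 0.326 CPM in control cells under drug and 24.6 ± 1.96 CPM in control cells in DMSO. OSR2, a zinc finger factor, had the widest gap of the 6, with log2 fold changes of 3.87 under drug and 4.19 in DMSO. ARPP21, a protein kinase A substrate known from brain, had 2.26 under drug and 2.23 in DMSO. The closest to the mirror image of CNR1 were S100A4 (difference 0.179, correlation -0.994), TNFRSF1B (0.217, -0.992) and RPRML (0.292, -0.990). S100A4, a calcium-binding protein, averaged 20.6 ± 2.16 CPM in knockdown cells under drug, 25.6 ± 3.32 CPM in knockdown cells in DMSO, 211 ± 17.4 CPM in control cells under drug and 206 ± 7.21 CPM in control cells in DMSO (SD, n = 3 each). These genes were picked on the same libraries, so their values are a description.

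**Figure D5:**
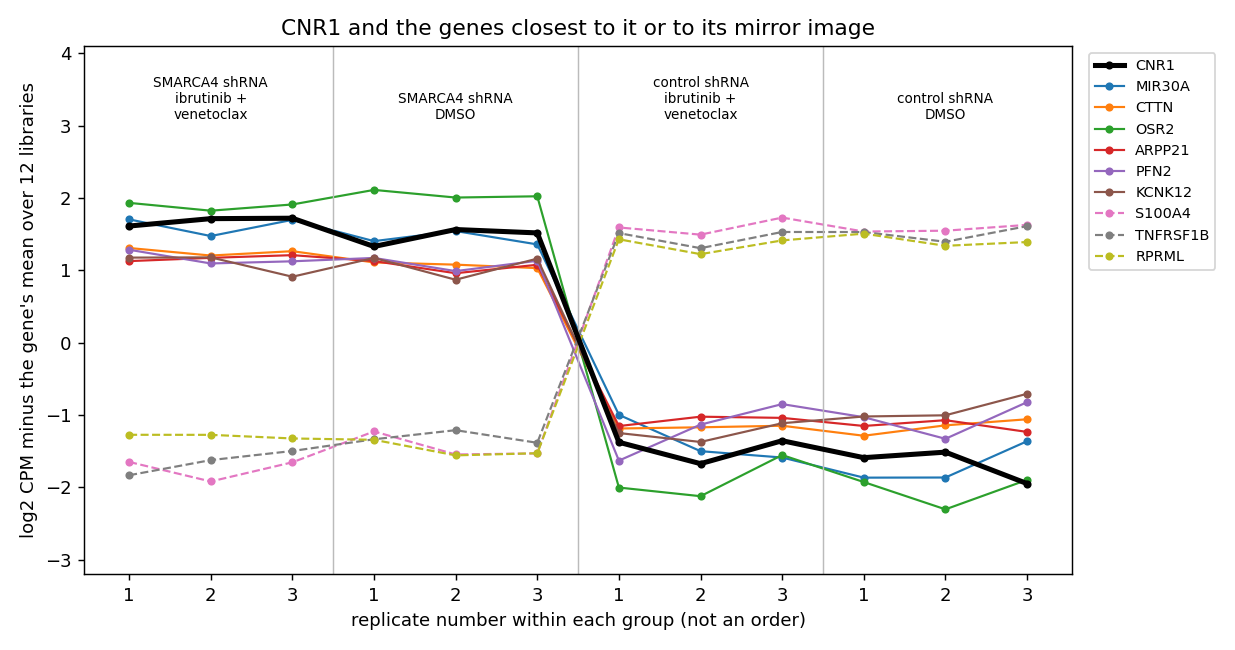
Log2 CPM minus the mean over 12 libraries for CNR1 (thick black line), the 6 genes closest to its profile (solid) and the 3 closest to its mirror image (dashed), by library. The step lies between the knockdown and control libraries, and MIR30A runs closest to CNR1 with a root mean square difference of 0.269.

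Next to CNR1 in the GENCODE 29 order, the 3 nearest genes of any type on each side had no row. Among the 3 nearest protein-coding genes on each side, a choice made after seeing this, AKIRIN2 and PNRC1 rose, ORC3 and RNGTT did not pass, and SPACA1 and SRSF12 had no row. AKIRIN2, a nuclear factor that helps carry proteasomes into the nucleus, averaged 33.8 ± 2.68 CPM in knockdown cells under drug, 35.3 ± 1.21 CPM in knockdown cells in DMSO, 21.2 ± 2.06 CPM in control cells under drug and 21.6 ± 2.66 CPM in control cells in DMSO (SD, n = 3 each). Its log2 fold changes were 0.67 under drug and 0.72 in DMSO (edgeR adjusted p = 4.02e-06 and 4.92e-07). Those of PNRC1, a nuclear receptor coactivator, were 0.86 under drug and 0.78 in DMSO (edgeR adjusted p = 2.56e-07 and 2.81e-07). RNGTT, the mRNA capping enzyme and the nearest protein-coding gene on its side, was at 0.10 in both conditions. No gene in GENCODE 29 overlaps CNR1, so its count is not shared with an annotated partner there. CNR2 overlaps 2 genes, 1 of them on the opposite strand, and of its neighbours FUCA1 and SRSF10 are described. SRSF10, a splicing factor, fell by 0.28 in DMSO (edgeR adjusted p = 0.00185). Under drug it was at -0.25 (adjusted p = 0.00643), a call lost without replicate 2 of knockdown cells under drug (-0.19). FUCA1 did not pass.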

How the data were processed

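RNA of 12 Z-138 libraries was read from 3' ends with a Lexogen QuantSeq kit, per the labels. The authors deposited raw counts per gene, whole numbers without normalization, with a lowest row total of 13. Per the submitters' processing notes, the build was hg19 and the tools included HTSeq, HISAT2 and bcl2fastq 2.17.1.14. Versions of the first 2 tools, the annotation and the strand setting were not given in the sources used here. Columns were matched to samples by name and 0 were left over. Rows without a symbol (1656) kept their identifiers.

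Genes were filtered with filterByExpr (minimum count 10, minimum total 15), which removed 1218 and left 12602, and scaled by TMM. A quasi-likelihood model of all 12 libraries, with a coefficient for each group, was fitted in edgeR 4.0.16 (R 4.3.3; 8 residual degrees of freedom; biological coefficient of variation 5.69%). P-values are two-sided, with Benjamini-Hochberg adjustment over the whole set of genes tested. The scripts were tested on simulated data. Replicates differed by more than sampling noise in every pair (chi-square per degree of freedom at least 1.81), so none was counted as a duplicate.

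The members and lists were chosen with earlier results of these data known. By rule, the text names CNR1, CNR2 and SMARCA4, list members past the threshold (the rule stops at 4 per list and comparison; 2 more, in the cAMP list, are also given), the most abundant member of each list, the genes of most similar profile and the nearest genes. Not every gene named by this rule is reported here. Other genes that did not pass are named for completeness, after their values were seen. Alternatives used limma 3.58.1 and DESeq2 1.42.0, other scalings and filters, 2-group fits, a replicate block, removal of 3 ribosomal RNA rows, thinning and leaving out each library. Intervals cover the spread between these libraries. Positions are given only for RefSeq windows, since the annotation used (GENCODE 29) is of another build than hg19.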

Additional observations from a re-analysis of the deposited data

How the results depend on the processing

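CNR1 kept its direction in the 22 alternatives of each knockdown and drug comparison. Its log2 fold change was 3.09 to 3.28 for knockdown in DMSO and 3.09 to 3.27 under drug. For the drug it was 0.15 to 0.25 in knockdown cells (adjusted p 0.191 to 0.725) and 0.098 to 0.31 in control cells (adjusted p 0.695 to 0.972). The difference between the drug effects, near 0, changed sign with library totals (0.048) and ran from -0.11 to 0.11 with each library left out, with adjusted p of at least 0.977. Replicate numbers did not pair libraries (0 of 18 same-number pairs correlated above 0.1; 4 of 12 libraries correlated best with their own number); with the replicate block CNR1 was at 3.19 (DMSO), 3.18 (under drug), 0.21 (drug, knockdown), 0.22 (drug, control) and -0.008 (difference), no call of CNR1 changed and the difference between the drug effects had 2 genes past the threshold. With all libraries 162 genes were changed by drug in knockdown cells and 163 in control cells. With each library left out the count was 100 (without replicate 3 of knockdown cells in DMSO) to 181 in knockdown cells and 106 (without replicate 1 of control cells under drug, placed by elimination) to 176 in control cells. Genes higher under drug were 57.4% of those past the threshold in knockdown cells (71.4% with library totals) and 57.1% in control cells (46.5% with library totals). The difference had 3 genes, 1 with the filter at 5 CPM, 1 to 3 with each library left out, and 0 in edgeR without ribosomal rows (676 at an unadjusted p under 0.05; 4 each by DESeq2 and limma-voom with those rows). With knockdown, leaving out 1 library gave 3218 to 4094 genes in DMSO and 3312 to 3954 under drug. For the other named genes, 1753 of 1860 recalculated values kept their call, 107 lost it and 0 reversed. The cause was not tested. Without the library placed by elimination, ABHD12, GNG5, GRK4 and GRK6 lost their call for knockdown under drug. GDE1 and NAPEPLD then lost theirs for knockdown in DMSO, and PDE4B lost that for the drug in control cells. The calls of GNG4, GPR183 and PDE3B for the drug in control cells held without it. Low counts limit CNR1 in control cells, where 31 to 48 tags per library leave a 95% interval of 0.903 to 1.5 on the drug fold change. CNR2 has no values, so neither its alternatives nor the share of the pair could be computed.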
